A study of Homo sapiens with 12 samples.

Results

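Secreted angiogenic and vascular factors were followed in HCT116 cells through 24 h of hypoxia. The 7 genes were chosen by name: VEGFA, VEGFB, VEGFC and PGF of the vascular endothelial growth factor family, the peptide hormone precursors ADM and EDN1, and the angiopoietin-like protein gene ANGPTL4. They are 7 of the 56537 gene names that carry a transcript matching a reference exactly or sharing a splice junction with one (Cufflinks class = or j), and they hold 68 of the 286562 such transcripts. The level of a gene is the sum of its transcripts in FPKM (fragments scaled to transcript length and to the mapped fragments of the library), a unit per length in which genes can be set side by side. HCT116 is an established colorectal carcinoma line. Cells at 0 h were kept at 21% oxygen, and the other cells were moved to 1% oxygen, beginning 24 h after plating, for 1, 2 or 24 h. Each of the 4 time points has 3 libraries of strand-specific poly(A) RNA, described by the submitters as biological replicates, and no group carries another treatment or a genetic change. Time in culture and time in hypoxia cannot be told apart at 24 h from the labels.

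Oxygen-starved cells stabilise the HIF transcription factors, which bind a short DNA element near many genes, and secreted signals that recruit or relax blood vessels are among the best known of their targets. VEGFA acts on endothelial cells through the receptor KDR, whereas PGF and VEGFB bind FLT1 and VEGFC binds FLT4. Adrenomedullin, the product of ADM, widens vessels, endothelin-1, from EDN1, constricts them, and ANGPTL4 inhibits lipoprotein lipase and acts on vascular permeability.

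The label of the cells was checked first. Of 7 colorectal epithelial markers, 6 had a mean of at least 1 FPKM, and their summed FPKM was 1602 to 2321 at 0 h and 1641 to 1975 at 24 h, while the brush border gene VIL1 did not exceed 0.048 FPKM. None of 6 endothelial markers reached a mean of 1 FPKM, PECAM1 and CLDN5 were listed at 0 in every library, and the largest sum of the list was 0.129 FPKM. The summed fibroblast markers were 1.85 to 2.16 FPKM at 0 h and 5.81 to 8.84 at 24 h, a difference carried by COL1A1, with LUM at 0 in every library. The summed leukocyte markers were 1.80 to 2.31 FPKM at 0 h and 6.98 to 14.2 at 24 h, a difference carried by CD68, while PTPRC stayed at or below 0.0095 FPKM. Apart from COL1A1 and CD68, whose part in the results was not tested, the markers of vessels, stroma and blood cells were at or near 0.

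Promoter windows of the factors show where the core letters of the hypoxia response element lie. RefSeq windows of 300 bases (250 before and 50 after an annotated start, GRCh38.p14) were given for 6 of the 7 genes, in 9 windows. VEGFA has no entry among them. They were searched on both strands for ACGTG and for GCGTG, motifs that cannot overlap each other in full. Of all 35116 windows, 21.4% held ACGTG, 36.5% held GCGTG and 48.4% held either. One match per gene is printed here with 10 bases on each side, 5′ to 3′ on the strand of the gene, to set the genes called at 24 h beside the others. Capitals mark the match, which reads CACGT or CACGC where the motif lies on the opposite strand.
ADM, chr11:10304962-10304986, + strand, from position -101: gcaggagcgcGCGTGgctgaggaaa
ANGPTL4, chr19:8363911-8363935, + strand, from position -234: aaagaagagtCACGTctcccacggt
VEGFB, chr11:64234513-64234537, + strand, from position -61: ggtggggagcGCGTGtctgggtcac
PGF, chr14:74955745-74955769, - strand, from position -162: gagcccctcgCACGCactgcgggct
EDN1, chr6:12287916-12287940, + strand, from position -93: gatggctggcCACGTtttgtgtttc
VEGFC, chr4:176792967-176792991, - strand, from position -59: ccgggctcggCACGCtccctccctc

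Positions count from the annotated start and give the first capital letter, not the first printed base. All 6 genes with a window held at least 1 match, EDN1 held 4 in its 3 windows, and the letters were present in ADM and ANGPTL4, which rose at 24 h, as well as in VEGFB, PGF and EDN1, which did not pass the call. A match of 5 letters is a description of the window and says nothing of binding.

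At 0 h the factors spanned a wide range of levels. ADM was the most abundant at 25.1 ± 1.31 FPKM (SD, n = 3), followed by VEGFB at 17.5 ± 1.54 and VEGFA at 17.1 ± 0.834. VEGFB and VEGFA overlapped between libraries, and every other neighbour in the order was separated. PGF stood at 4.15 ± 0.261 FPKM, ANGPTL4 at 1.66 ± 0.143 and EDN1 at 0.601 ± 0.282. VEGFC, the growth factor of lymphatic vessels, was listed at 0 in all 12 libraries over its 2 transcripts, and it did not enter any test. At 24 h the order was ADM at 283 ± 56.7, ANGPTL4 at 161 ± 27.9, VEGFA at 65.5 ± 6.70, VEGFB at 28.1 ± 2.31, PGF at 2.68 ± 1.50 and EDN1 at 0.469 ± 0.101 FPKM. No neighbours overlapped at 24 h, and ANGPTL4 had moved from the fifth to the second place. At 1 h VEGFA and VEGFB overlapped, as did PGF and ANGPTL4, and at 2 h VEGFB and ANGPTL4 overlapped.

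**Figure D1:**
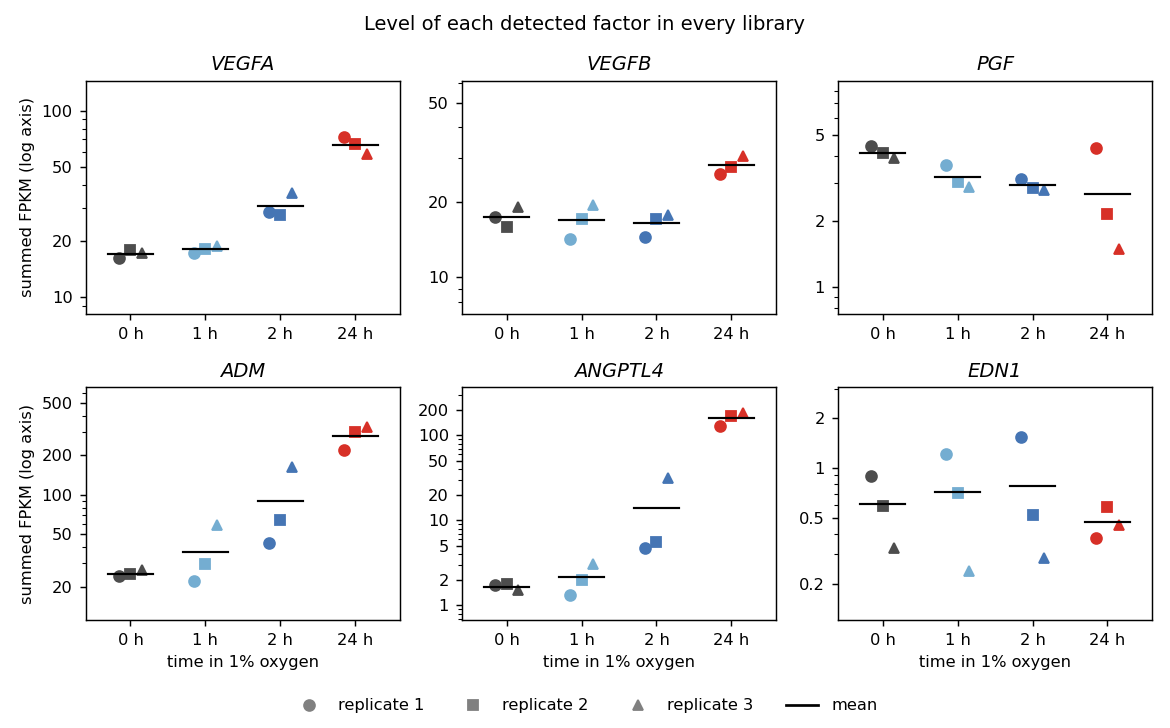
Summed FPKM (log axis, a separate range for each panel) of the 6 detected factors against time in 1% oxygen, with 1 symbol per library and a bar for the mean of 3 libraries. VEGFA, ADM and ANGPTL4 are high in all 24 h libraries, replicate 3 lies above the other two for ADM and ANGPTL4 at 1 h and 2 h, and PGF and EDN1 scatter without a rise. VEGFC is not drawn because it is listed at 0 throughout.

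ANGPTL4 (ENSG00000167772, chromosome 19: 8428173 to 8439254 on GRCh37) changed most on the log2 scale. Its level was 1.72, 1.77 and 1.50 FPKM in the 0 h libraries and 1.33, 1.97 and 3.11 at 1 h. It was 4.71, 5.54 and 31.7 FPKM at 2 h and 130, 171 and 183 at 24 h. The 0 h and 1 h values overlapped, all 3 libraries at 2 h lay above all 0 h libraries, and the 24 h libraries lay far above both. The ratio of mean FPKM between 24 h and 0 h was 97.1, and the fitted log2 fold change, on log2(FPKM + 0.5), was 6.21 ± 0.53 (SE), with an adjusted p of 2.17e-06 by limma. In bulk libraries more cells making a transcript and more RNA per cell cannot be told apart.

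ADM (ENSG00000148926, chromosome 11: 10326620 to 10328944) started from a higher level. It stood at 23.9, 25.0 and 26.5 FPKM at 0 h and 22.1, 29.6 and 59.2 at 1 h. It stood at 42.7, 63.9 and 163 FPKM at 2 h and 220, 299 and 330 at 24 h. The 1 h libraries straddled the 0 h range, and from 2 h on every library was above it. Between 24 h and 0 h the log2 fold change of ADM was 3.45 ± 0.42 (SE, adjusted p 3.04e-05, limma), a ratio of means of 11.2.

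VEGFA (ENSG00000112715, chromosome 6: 43737921 to 43754224) rose less and with a narrower spread. Its level was 16.3, 17.9 and 17.2 FPKM at 0 h and 17.3, 18.1 and 18.7 at 1 h. It was 28.5, 27.5 and 36.1 FPKM at 2 h and 72.0, 65.8 and 58.6 at 24 h. The 2 h libraries lay between the 0 h and 24 h libraries with no overlap on either side. The log2 fold change at 24 h was 1.90 ± 0.12 (SE, adjusted p 2.74e-07, limma), a ratio of means of 3.82.

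VEGFB (ENSG00000173511, chromosome 11: 64002056 to 64006736), whose product supports fatty acid uptake and heart vessels more than sprouting, stayed below the fold limit of the call. It was 17.4, 16.0 and 19.1 FPKM at 0 h, 14.3, 17.1 and 19.5 at 1 h, and 14.6, 17.2 and 17.7 at 2 h. At 24 h it was 26.1, 27.7 and 30.6 FPKM, above every earlier library. The log2 fold change at 24 h was 0.67 ± 0.13 (SE, adjusted p 0.000863, limma), and its sign turned to -0.18 (adjusted p 0.743) when the libraries were rescaled to TPM over all transcripts. That rescaling put the median of all genes at -0.78 at 24 h, from -0.05, and relative to that median VEGFB stood at 0.61. In each library 57.0% to 87.6% of all FPKM lay in transcripts under 300 bases, and rescaling over longer transcripts left the sign as it was.

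PGF, placental growth factor (ENSG00000119630, chromosome 14: 75408537 to 75422329), did not pass the call at 24 h. It was 4.43, 4.12 and 3.91 FPKM at 0 h and 3.66, 3.03 and 2.89 at 1 h. At 2 h it was 3.15, 2.86 and 2.78 FPKM, and at 24 h it was 4.36, 2.17 and 1.50. The 1 h and 2 h libraries lay below every 0 h library, but at 24 h replicate 1 was back within the 0 h range while the other replicates were the lowest of all 12. The log2 fold change at 24 h was -0.65 ± 0.25 (SE, adjusted p 0.0436, limma), and without 24 h replicate 1 it was -1.01 with an adjusted p of 0.000415, which passes the call. Without 24 h replicate 3, the lowest library, it was -0.37 (adjusted p 0.18), and with any 1 library other than 24 h replicate 1 left out the adjusted p was 0.0506 to 0.18.

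EDN1 (ENSG00000078401, chromosome 6: 12290594 to 12297427) was close to the limit of FPKM above 0.5 in at least 3 libraries that a gene needed to be tested. It was 0.889, 0.589 and 0.326 FPKM at 0 h and 1.21, 0.708 and 0.240 at 1 h. At 2 h it was 1.53, 0.522 and 0.287 FPKM, and at 24 h it was 0.379, 0.578 and 0.449. The ranges of all 4 time points overlapped. The log2 fold change at 24 h was -0.16 with a 95% interval of -0.96 to 0.64 (adjusted p 0.738, limma). At this level the added 0.5 FPKM compresses changes, so the interval is no bound on the change in FPKM itself.

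**Figure D2:**
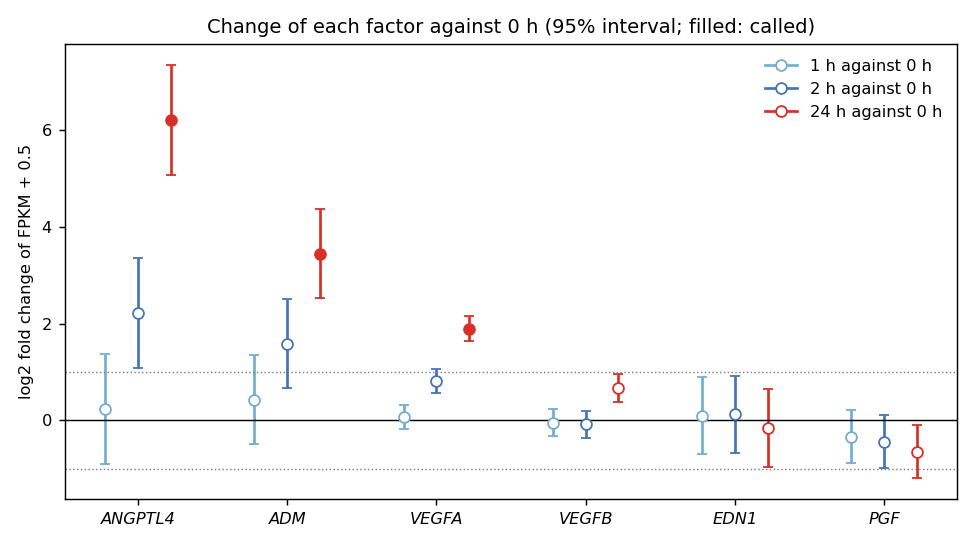
Log2 fold change of FPKM + 0.5 at 1 h, 2 h and 24 h against 0 h for the 6 tested factors, as points with 95% intervals from the limma fit. Filled points passed the call and dotted lines mark a log2 fold change of 1 in either direction. ANGPTL4, ADM and VEGFA are filled at 24 h, at 6.21, 3.45 and 1.90, and no point is filled at 1 h or 2 h.

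Across the 3 comparisons with 0 h, the call needed a log2 fold change beyond 1 in either direction together with an adjusted p below 0.01, the limits the study used. At 24 h, 3 of the 6 tested factors were called, all of them higher, where 8.76% of the 16680 genes tested were called higher and 9.51% lower. The libraries of 24 h and 0 h did not overlap, in the higher direction, for 4 of the 6 (VEGFA, VEGFB, ADM and ANGPTL4), as was so for 27.6% of all genes tested. At an adjusted p under 0.05 with no fold limit, 5 of the 6 passed, with VEGFB higher and PGF lower, where 55.3% of all genes passed. When the libraries were rescaled to TPM over all transcripts, which turned the calls over all genes from 1462 higher and 1586 lower to 209 higher and 3995 lower, ADM and ANGPTL4 were still called higher, PGF was called lower at -1.07, which is -0.29 relative to the median of all genes, and VEGFA, at 1.02 with an adjusted p of 0.0431, was not.

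After 2 h none of the 6 tested factors passed the call in limma, and 3 of them (ADM, ANGPTL4 and VEGFA) had an unadjusted p under 0.05, as did 15.3% of all genes. Over all genes 0.018% were called at 2 h. The log2 fold change at 2 h was 0.81 (95% interval 0.56 to 1.07, adjusted p 0.0177) for VEGFA, 1.59 (0.67 to 2.51, adjusted p 0.134) for ADM and 2.22 (1.07 to 3.36, adjusted p 0.104) for ANGPTL4. All of their 2 h libraries lay above all of their 0 h libraries, which held for 12.2% of all genes, and those of PGF lay below, as for 13.1%. With the replicate number as a block the adjusted p was 0.0166 for VEGFA, 0.0326 for ADM and 0.0429 for ANGPTL4, still short of the call. Under TPM over all transcripts, which put the median of all genes at -0.94, the values at 2 h were -0.25 for VEGFA (adjusted p 0.581), 0.50 for ADM and 1.10 for ANGPTL4, or 0.69, 1.44 and 2.04 relative to that median. Replicate 3 was the highest of the 2 h libraries for all 3 genes. Among hypoxia-induced control genes it was far above the others for ANKRD37 (8.12, 9.91 and 35.5 FPKM) but close to them for BNIP3 (27.7, 30.4 and 30.6) and PDK1 (4.11, 4.15 and 4.60), and NDRG1 had 24.0, 31.1 and 52.0 FPKM at 2 h after 18.1, 23.6 and 30.5 at 0 h. Without that library the values at 2 h were 0.69 for VEGFA, 1.04 for ADM and 1.38 for ANGPTL4, still with no factor called.

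After 1 h none of the 6 passed in limma, none had an unadjusted p under 0.05, which 4.61% of all genes had, and 0.006% of all genes were called. The log2 fold change of VEGFA at 1 h was 0.07 with a 95% interval of -0.18 to 0.33, which leaves out a change of a log2 unit in either direction. For ADM the interval was -0.50 to 1.34 and for ANGPTL4 -0.91 to 1.38, which do not leave out a rise of a log2 unit on that scale. PGF was the one factor whose 1 h and 0 h libraries did not overlap (log2 fold change -0.34, 95% interval -0.88 to 0.21), lower at 1 h as were 7.33% of all genes.

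The 3 factors called at 24 h against 0 h were also called higher at 24 h than at 2 h. ANGPTL4 was higher at 24 h than at 2 h by 3.99 (SE 0.53, adjusted p 6.14e-05), ADM by 1.86 (SE 0.42, adjusted p 0.00299) and VEGFA by 1.09 (SE 0.12, adjusted p 1.36e-05) on the log2 scale in limma. These are 3 of the 6 tested factors, where 7.44% of all genes were called higher and 7.28% lower. The 24 h libraries lay above all 2 h libraries for these 3 and for VEGFB, as for 25.3% of all genes. VEGFB differed by 0.75 (SE 0.13, adjusted p 0.000437), below the fold limit. The call of ADM was lost, with an adjusted p of 0.0118 to 0.0144, when 2 h replicate 1, 2 h replicate 2, 24 h replicate 2 or 24 h replicate 3 was left out, and it was 0.0133 with no filter on genes. Under TPM over all transcripts the difference for VEGFA was 1.27 with an adjusted p of 0.0476, which does not pass the call.

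The transcripts behind these sums differed in number and kind between the genes. VEGFA held 27 of the 68 transcripts, of which 20 were above 0 in some library and 13 had an FPKM above 0.5 in at least 3 libraries. Transcript types were read from GENCODE release 44 on GRCh37 through the nearest reference of each model. Among the 13, the types were protein coding for 7 and retained intron for 6, and Cufflinks estimates of transcripts that share most of their exons are less certain than their sum.

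The main coding transcripts of VEGFA rose with the gene. The model of VEGFA-205 of 3535 bases went from 3.07 ± 0.668 FPKM at 0 h to 14.0 ± 3.94 at 24 h (log2 fold change 2.01, adjusted p 0.000597, limma on transcripts). The model of VEGFA-204 of 2834 bases went from 3.41 ± 0.967 to 12.6 ± 3.12 FPKM (1.74, adjusted p 0.000515). An exon of 132 bases, or 44 codons (chromosome 6: 43749693 to 43749824, GRCh37), is present in VEGFA-205 and absent from VEGFA-204, which also starts further downstream. It is a coding exon of the part of the protein that binds heparin. Coding transcripts with this exon made up 52.5%, 68.4% and 71.1% of the coding FPKM with a known exon chain in the 0 h libraries, and 53.1%, 61.6% and 67.3% at 24 h. The groups overlapped, with means of 64.0% and 60.7% (two-sided exact permutation p 0.6, n = 3 each), while the FPKM of transcripts with the exon went from 6.55 to 19.4 and of those without it from 3.80 to 12.7.

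**Figure D3:**
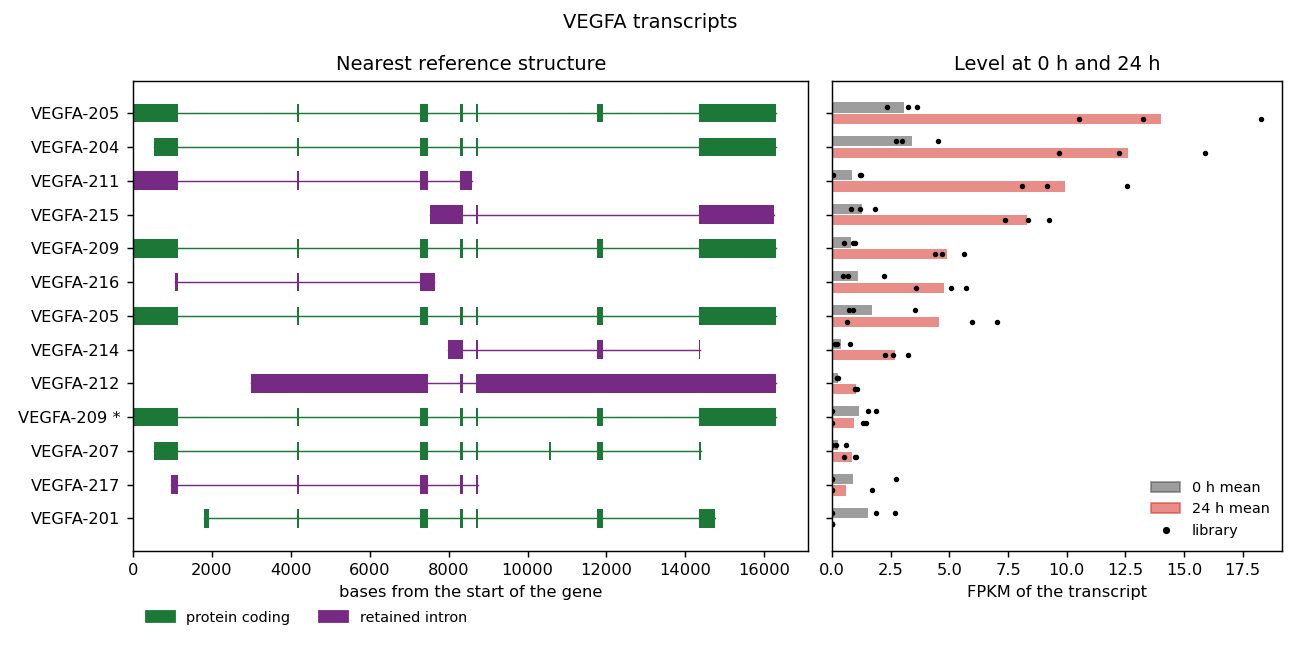
Left, exons (boxes) of the nearest reference of each of the 13 VEGFA transcripts, in bases from the start of the gene, ordered by level at 24 h. An asterisk marks a model that shares junctions with its reference without matching it, and a reference named on several lines is the nearest to several models. Right, FPKM of each transcript, with bars for the mean at 0 h and 24 h and dots for the 3 libraries. The retained-intron transcript VEGFA-211 is the third at 24 h, at 9.94 FPKM, after VEGFA-205 at 14.0 and VEGFA-204 at 12.6.

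Retained-intron transcripts held a larger share of VEGFA in every 24 h library than in any earlier one. Their share of the summed FPKM was 21.3%, 37.3% and 23.3% at 0 h, 24.2%, 16.5% and 21.5% at 1 h, and 26.5%, 24.9% and 23.5% at 2 h. At 24 h it was 43.4%, 41.5% and 39.8%. The nearest earlier library was 0 h replicate 2, and the mean difference between 24 h and 0 h was 14.3 percentage points. The two-sided exact permutation p of 0.1 is the smallest that 3 libraries against 3 can give. Of 6794 genes with coding and retained-intron transcripts, 16.6% had a higher share in every 24 h library than in any 0 h library, and the median difference over them was 0.446 percentage points. In FPKM, retained-intron VEGFA went from 4.71 ± 1.73 to 27.3 ± 3.94, a ratio of 5.79, and coding VEGFA from 12.4 ± 1.02 to 38.2 ± 2.76, a ratio of 3.08. Both kinds of transcript were higher in every 24 h library than in any 0 h library.

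Among the 6 retained-intron transcripts, 5 were called higher at 24 h in the fit on transcript levels, where 5.0% of 62162 transcripts were. VEGFA-211, of 1683 bases, rose most, from 0.828 to 9.94 FPKM (log2 fold change 3.13, adjusted p 0.000441), and VEGFA-215, of 2746 bases, went from 1.27 to 8.33 FPKM (2.35, adjusted p 7.91e-05). VEGFA-214 had a log2 fold change of 1.93, VEGFA-216 of 1.84 and VEGFA-212, of 12167 bases, of 1.04. VEGFA-212 met the limit of 0.5 FPKM in 3 libraries only through the 24 h group, where it is high, so its call is no support for the count. VEGFA-217 had 0.903 FPKM at 0 h, where 1 library carried all of it, and 0.567 at 24 h. Of the 7 coding transcripts 3 were called higher, namely VEGFA-205, VEGFA-204 and a model of 1199 bases nearest to VEGFA-209 (2.07). VEGFA-201 went from 1.51 FPKM at 0 h to 0 in every library at 2 h and 24 h, although 0 h replicate 2 was also near 0. The remaining coding models were a shorter model of VEGFA-205 at 1.71 and 4.54 FPKM, VEGFA-207 at 0.255 and 0.830, and a further model near VEGFA-209 at 1.13 and 0.923, at 0 h and 24 h.

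Start sites followed the same transcripts. The Cufflinks start group that holds VEGFA-211 and the 3535-base model of VEGFA-205 made up 22.5%, 19.9% and 25.9% of VEGFA at 0 h and 32.1%, 34.0% and 45.1% at 24 h. The group of VEGFA-201 and a model near VEGFA-209, which starts further downstream, made up 11.4%, 8.53% and 26.4% at 0 h. At 24 h it made up 2.00%, 0.00412% and 2.26%. VEGFA-201 by itself was 11.4%, 0.0136% and 15.7% of VEGFA in the 0 h libraries. A group holding VEGFA-215 alone made up 5.03%, 10.2% and 6.81% at 0 h and 11.6%, 14.1% and 12.6% at 24 h. In these 3 of the 9 VEGFA start groups above 0 the libraries of 0 h and 24 h did not overlap, 2 of them higher and 1 lower, and each two-sided exact permutation p was 0.1. Over 62831 start groups of the genes with more than 1, the libraries did not overlap in 9.53% in the higher and 8.06% in the lower direction. At 2 h the first group made up 36.8% on average, as large a part as the 37.1% at 24 h.

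**Figure D4:**
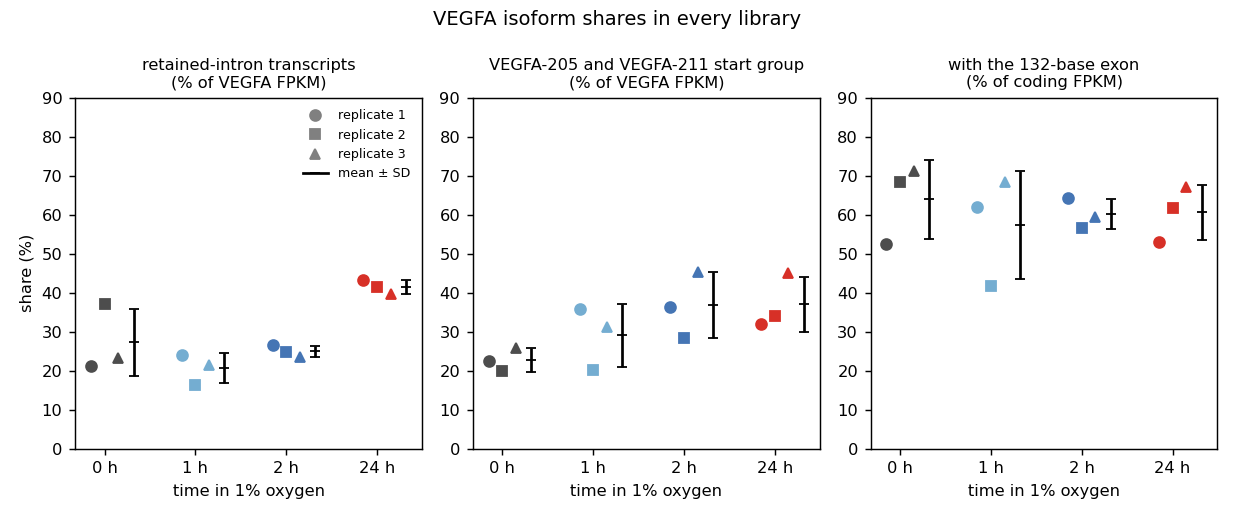
Share of VEGFA in retained-intron transcripts (left), in the start group of VEGFA-205 and VEGFA-211 (centre) and, among coding transcripts with a known exon chain, with the 132-base exon (right), against time in 1% oxygen. Symbols are libraries and bars are the mean ± SD of 3. The left panel rises at 24 h to a mean of 41.6%, the centre panel is already at 36.8% at 2 h, and the right panel stays between means of 57.4% and 64.0%.

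The test of transcript shares for VEGFA depended on its settings. In limma on the log2 share of each transcript, with a Simes p per gene, VEGFA had an adjusted p of 0.0336 at 24 h. It was 0.482 at 2 h and 0.0632 between 24 h and 2 h. The value at 24 h came from VEGFA-201, the transcript with the smallest p, which passed the filter only through the 0 h group, where it is high. That value is therefore no support for a change of usage. Of 10680 genes, 30.3% had an adjusted p under 0.05 at 24 h, 0.00936% at 2 h and 21.7% between 24 h and 2 h. The 3 VEGFA transcripts called by the test at 24 h, VEGFA-201, VEGFA-207 and VEGFA-212, were all scored as lower. Of 57084 transcripts, 11.4% were called in either direction. VEGFA-207 and VEGFA-212 met the limit of 0.5 FPKM in 3 libraries only through the 24 h group, where they are high. VEGFA-201 met it only through the 0 h group, so the 3 calls are no support for a change of usage. On the percent scale, with no pseudocount, the share of VEGFA-207 was 1.47% at 0 h and 1.30% at 24 h. That of VEGFA-212 was 1.33% at 0 h and 1.54% at 24 h. At 24 h the adjusted p was 7.49e-05 by limma's diffSplice, 0.000113 with no filter on transcripts and 0.00275 with a pseudocount of 1. At 2 h diffSplice gave VEGFA an adjusted p of 0.057 and called 301 of 10680 genes. With a pseudocount of 0.1 the adjusted p at 24 h was 0.135. It was 0.0524 to 0.0922 without 0 h replicate 1, 0 h replicate 3, 2 h replicate 1, 2 h replicate 3 or any 1 library of 24 h.

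The other factors had fewer transcripts. ADM-201, the main ADM transcript, held 48.9% of ADM at 0 h and 51.7% at 24 h, and no ADM transcript was of a noncoding type. The main transcript of ANGPTL4 held 76.2% of the gene at 0 h and 90.6% at 24 h. Its libraries were at 78.8%, 65.6% and 84.1% against 89.7%, 89.9% and 92.2% (two-sided exact permutation p 0.1). At 1 h they were at 60.6%, 34.0% and 88.3%, and how many transcripts of all genes separate in this way was not counted. The usage test gave ANGPTL4 an adjusted p of 0.0006. Its minor transcripts were at most 0.419 FPKM in any 0 h library, below the pseudocount. The adjusted p came from a retained-intron transcript, which had the smallest p. That transcript passed the filter only through the 24 h group, where it is high. It was scored as lower, at -3.26 on the log2 scale, while its mean share went from 0% at 0 h to 2.44% at 24 h. The adjusted p is therefore no support for a change of usage. A minor start group of ANGPTL4 made up 7.03%, 23.7% and 11.2% of the gene at 0 h and was at 0 in every library at 1 h and 24 h, and at 0, 3.58% and 0.214% at 2 h (two-sided exact permutation p 0.1 between 24 h and 0 h, a separation seen in the lower direction in 8.06% of all start groups). VEGFB-204, a retained-intron transcript, held 39.2% of VEGFB at 0 h and 39.4% at 24 h. The adjusted p of the usage test at 24 h was 0.109 for ADM, 0.261 for VEGFB and 0.274 for PGF, and EDN1 had a single transcript past the filter.

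Genes whose pattern over the 12 libraries was most like that of a called factor were found by Pearson's r on log2(FPKM + 0.5) among 14360 genes. For ANGPTL4 they were HILPDA, a lipid droplet protein gene (r = 0.993), ANKRD37 (0.989) and AVPI1 (0.988). For VEGFA they were ANKRD37 (0.988), MXD1, a partner of MAX (0.983), and ERRFI1, an inhibitor of EGFR (0.982). For ADM they were CDKN1C, a cyclin-dependent kinase inhibitor (0.984), CTB-58E17.3 (0.981) and ANGPTL4 itself (0.98). The points share their libraries and fall largely into 24 h against the rest, so these values describe a ranking only.

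The receptors and partners of the factors were mostly low in these cells. Of the VEGF receptors and co-receptors, only NRP1 of 5 was tested, with 2.89 FPKM at 0 h and 3.43 at 24 h (log2 fold change 0.27, adjusted p 0.481), and the means of FLT1, KDR and FLT4 did not exceed 0.0805 FPKM at any time point. Of 12 genes for adrenomedullin and endothelin receptors and processing, 6 were tested and 1 was called, higher, where 8.76% of all genes were called higher and 9.51% lower. PAM, the enzyme that amidates adrenomedullin and other peptides, went from 108 ± 3.83 to 220 ± 5.59 FPKM (log2 fold change 1.02, adjusted p 4.61e-06), and without 0 h replicate 1 or 24 h replicate 1 its log2 fold change was 0.992 and 0.996, below the fold limit. It was also below that limit under TPM, at 0.92 over transcripts of at least 300 bases and 0.14 (adjusted p 0.812) over all transcripts. RAMP2, RAMP3, EDN3 and EDNRB were listed at 0 in every library, RAMP1 had 16.3 FPKM at 0 h and 17.6 at 24 h, and the median log2 fold change of the list was 0.04 against -0.05 for all genes tested.

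Other secreted angiogenic factors from a list of 28 were measured beside the 7, and 17 of them were tested. At 24 h, 5 were called higher and none lower, with a median log2 fold change of 0.70 against -0.05 for all genes, of which 8.76% were called higher and 9.51% lower. The count of called genes was 6 without 0 h replicate 1 and 7 without 24 h replicate 3. PDGFA, a mitogen of mesenchymal cells, went from 12 ± 1.86 to 115 ± 29.0 FPKM (3.19, adjusted p 1.66e-07). ANG, angiogenin, went from 1.74 ± 0.676 to 14.6 ± 1.06 FPKM (2.79), and the hormone gene STC2 from 35.8 ± 1.78 to 172 ± 24.3 (2.24). TGFA, a ligand of EGFR, went from 16.0 ± 1.49 to 50.6 ± 6.61 FPKM (1.63), but was 0.75 (adjusted p 0.135) and not called under TPM over all transcripts. None of these was called at 1 h or 2 h in limma. The 6 further angiopoietin-like genes looked up were all under the filter or listed at 0, so ANGPTL4 was the only one of those looked up that was tested.

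Inhibitors and proteases were measured as well. Of 12 secreted inhibitors of angiogenesis 9 were tested, 2 were called higher and none lower, with a median of 0.55, against the same 8.76% and 9.51% of all genes. VASH1, vasohibin, went from 2.80 to 9.62 FPKM (1.61) and TIMP2 from 29.0 to 64.3 (1.13), while THBS1, thrombospondin, was at 6.51 and 2.84 FPKM (-1.13, adjusted p 0.034) and was not called. Of 9 matrix protease and plasminogen genes 6 were tested and 4 were called higher, with a median of 1.23, where 8.76% of all genes were called higher. Among them were the urokinase receptor gene PLAUR (1.66), urokinase itself, PLAU (1.37), and the membrane-bound matrix metalloproteinase gene MMP14 (1.08). Under TPM over all transcripts none of the inhibitors and none of the proteases was called higher. All 7 hypoxia-induced control genes were called higher at 24 h, with a median of 3.34, led by ANKRD37 (5.45), NDRG1 (5.34), EGLN3 (3.46) and BNIP3 (3.34).

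**Figure D5:**
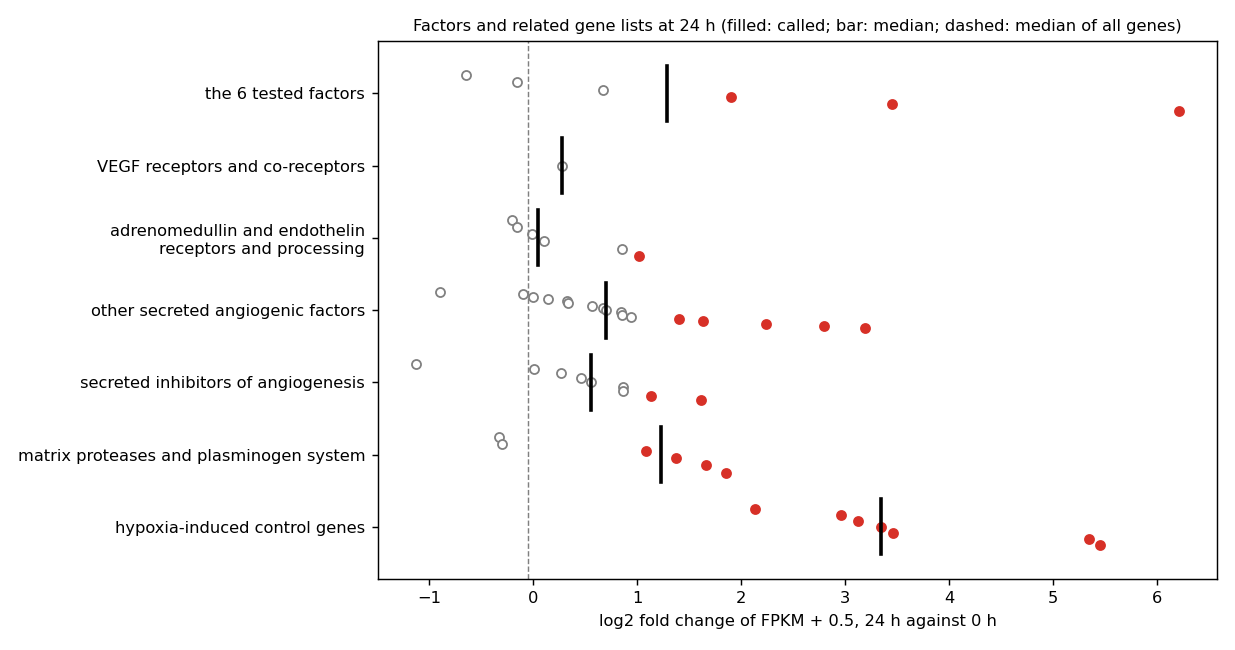
Log2 fold change of FPKM + 0.5 at 24 h against 0 h for the 6 tested factors and for the tested genes of each related list, 1 point per gene. Filled points were called, bars mark the median of a list and the dashed line the median of all genes at -0.05. ANGPTL4, at 6.21, lies to the right of all 7 hypoxia-induced control genes, the highest of which is ANKRD37 at 5.45.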

How the data were processed

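The authors aligned reads to GRCh37 (hg19), assembled transcripts with Cufflinks, merged them with Ensembl and deposited FPKM per transcript and library, with a second deposited table of names, class codes, start groups and lengths in bases. The submitters' notes name CASAVA 1.8.2. Read counts were not analysed here, so the depth behind each value is unknown and the spread of 3 libraries is the measure of precision.

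FPKM was summed over class = and j transcripts of a gene name. Genes with a sum above 0.5 in at least 3 libraries were tested with limma 3.58.1 (R 4.3.3; lmFit, eBayes with trend, two-sided) on log2(FPKM + 0.5) in 1 fit of the 12 libraries, and p-values were adjusted over all genes by Benjamini-Hochberg. This scale understates changes of low genes. The study used its limit of FPKM above 0.5 on transcripts. Shares were tested by the same fit, and single shares by exact permutation (scipy 1.17.1). Both fits were tested on simulated data. The members and lists were chosen with earlier results of these data known. Named were all members, the VEGFA transcripts past the filter, up to 4 called genes per list and direction, receptor genes at 0, and the 3 genes most like each called member; 1 gene that this rule names is not reported here. P-values measure the spread between libraries of 1 cell line.

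Libraries with the same replicate number were compared by the correlation of their deviations from the time-point means: it was 0.129 to 0.362 between 0 h and 2 h, so the numbers pair these libraries, but -0.000785 to 0.242 between 0 h and 24 h. The numbers come from the sample labels. Alternatives were other pseudocounts, filters, scalings, units and blocks, single libraries left out, and, chosen after seeing the data, both libraries of replicate 3 at 1 h and 2 h left out and other sums for the retained-intron share.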

Additional observations from a re-analysis of the deposited data

Results flagged for a closer look

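The changes at 2 h and at 24 h, each against 0 h, differed past the fold limit for 3 factors in the limma fit. Of all genes, 7.44% were called higher at 24 h than at 2 h and 7.28% lower. The difference on the log2 scale, 24 h minus 2 h, was 3.99 for ANGPTL4, 1.86 for ADM and 1.09 for VEGFA, with adjusted p of 6.14e-05, 0.00299 and 1.36e-05, and in each gene all 3 libraries at 24 h were above all 3 at 2 h, as for 25.3% of all genes. VEGFB also did not overlap, at 0.75 with an adjusted p of 0.000437, below the fold limit. The call of ADM was lost (adjusted p 0.0118 to 0.0144) without 2 h replicate 1, 2 h replicate 2, 24 h replicate 2 or 24 h replicate 3. Single libraries were not tested as outliers.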

How the results depend on the processing

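The direction of ADM, ANGPTL4 and VEGFA at 24 h was the same under every alternative run, and ADM and ANGPTL4 kept their call at 24 h in all of them. At an adjusted p under 0.05 with no fold limit, 1 factor passed at 2 h and 5 at 24 h, and over all genes 52 and 9228 passed where 3 and 3048 had been called. With TPM over all transcripts the log2 value turned at 1 h to -0.53 for VEGFA, -0.20 for ADM and -0.23 for ANGPTL4, at 2 h to -0.25 for VEGFA, at 24 h to -0.18 for VEGFB and between 24 h and 2 h to 0.0652 for PGF, EDN1 was not tested, and 540 genes were called at 2 h and 28 at 1 h where 3 and 1 had been. That scaling put the median of all genes at -0.56 at 1 h, -0.94 at 2 h, -0.78 at 24 h and 0.12 between 24 h and 2 h (-0.05 to -0.0071 with values as deposited), and relative to it these factors kept their original sign (VEGFA at 0.69 at 2 h). Under that scaling the called counts at 24 h were 0 higher for adrenomedullin and endothelin genes, 3 higher and 1 lower for other angiogenic factors, 0 higher and 1 lower for inhibitors, and 0 higher for proteases. TPM over transcripts of at least 300 bases gave 0 higher for the adrenomedullin and endothelin genes and 1 lower among the other angiogenic factors, as a pseudocount of 0.1 also did (1 lower). VEGFA at 1 h was -0.00161 with only transcripts past the filter and -0.0202 with class = alone, and ANGPTL4 at 1 h was -0.0208 without both libraries of replicate 3 at 1 h and 2 h. The adjusted p of VEGFA isoform usage at 24 h was 0.135 with a pseudocount of 0.1. Over all genes, usage was called at 24 h in 7121 of 17623 with no filter on transcripts where 3240 of 10680 had been, in 2165 of 10680 with a pseudocount of 0.1, in 2408 of 9461 with class = alone, and in 1912 to 3011 of 10680 without single libraries. At 2 h the called genes numbered 3, and 0 to 6 under other pseudocounts, filters, transcript sets and scalings than TPM over all transcripts. The cause of these differences was not tested.

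With single libraries left out, the count of called factors ranged from 3 to 4 at 24 h and from 2 to 3 between 24 h and 2 h, that of adrenomedullin and endothelin genes from 0 to 1, the adjusted p of VEGFA usage from 0.012 to 0.0922, and the retained-intron difference from 11.3 to 19.3 percentage points. Small log2 values that changed sign in this way were at 1 h VEGFB (-0.15 to 0.0669), ANGPTL4 (-0.0208 to 0.47) and EDN1 (-0.19 to 0.42), at 2 h VEGFB (-0.14 to 0.00145) and EDN1 (-0.26 to 0.42), at 24 h EDN1 (-0.35 to 0.0254), and between 24 h and 2 h PGF (-0.57 to 0.0738) and EDN1 (-0.58 to 0.11). When the replicate number was a block, the counts of called factors stayed at 0, 0, 3 and 3, and VEGFA usage at 24 h had an adjusted p of 0.0464. That block changed no call of a factor. Without counts, the depth behind EDN1, PGF and the minor transcripts is unknown, and for values under the pseudocount of 0.5 FPKM the log2 scale shows little of a change.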
